A study of Drosophila melanogaster with 16 samples.

Results

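Transcripts of the adult salivary gland (SG) were set beside those of the proventriculus (PV), the valve-like organ between foregut and midgut, in flies reported to carry the same bacterium. All flies were mated Canton-S females of Drosophila melanogaster that had been raised germ-free and were given LpWF (Lactiplantibacillus plantarum) once adult, and their age is not given. The SG LpWF group held 3 libraries and the PV LpWF group 5 libraries, 8 of the 16 in the series, each made from pooled dissected tissue. SG RNA was extracted with TRIzol and converted with a poly(A) kit, whereas PV RNA was extracted on RNeasy columns and depleted of ribosomal RNA. Tissue, extraction and kit therefore change together and cannot be told apart in any difference between these groups, and the labels do not say that replicates came from separate cultures, so p-values measure only the spread between these libraries.

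Both organs secrete into the path of the food. The SG is a simple gland whose cells make saliva, and the PV is known for making the peritrophic matrix, a sleeve of chitin, mucins and chitin-binding proteins that encloses the food in the midgut. Cells of this kind load nascent secreted proteins into the endoplasmic reticulum (ER), fold and glycosylate them, and move them through the Golgi, with energy from mitochondria and protons pumped by the vacuolar ATPase.

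The comparison used 13575 nuclear protein-coding genes of 17039 genes in the tables, without the 31 replication-dependent histone genes and the 13 mitochondrial genes. Reads on this gene set numbered 29523311 to 36180067 in SG libraries and 14450203 to 32082196 in PV libraries. Ribosomal RNA held 0.843 to 1.01% of reads on genes in the SG and 15.3 to 38.9% in the PV. Histone transcripts, most of which lack a poly(A) tail, held 0.000302 to 0.000614% of reads on genes in the SG and 0.0300 to 0.0391% in the PV. Levels within a tissue are given as coding TPM, which is TPM rescaled over the gene set, and as ranks with 1 as the highest. Between tissues, levels are given as normalized CPM and as edgeR log2 differences (SG minus PV) with standard errors (SE) and adjusted p. Plain CPM scales the counts of a library to its reads on the gene set, and normalized CPM is plain CPM divided by the TMM factor. These factors were 0.491 to 0.543 in the SG and 1.40 to 1.58 in the PV. Normalized CPM therefore lies above plain CPM in the SG and below it in the PV, and is not a share of reads.

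One PV library stood apart in a way that touches most of the SG genes below. The 9 highest SG genes other than Ag5r together stood in PV LpWF replicate 4 at 0.254% of their mean SG level, against 0.00136 to 0.0214% in the other PV LpWF libraries. Of these 9 genes CG43680 had PV reads in that library alone, and over the other 8 the log2 differences defined below were 11.50 to 13.31 with it and 13.51 to 16.60 without it. In the reverse direction, the 8 highest PV genes that do not encode ribosomal proteins stood at 0.0223, 0.0177 and 0.0897% of their mean PV level in SG replicates 1 to 3. What part of these low values comes from RNA of the other tissue was not tested.

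**Figure D1:**
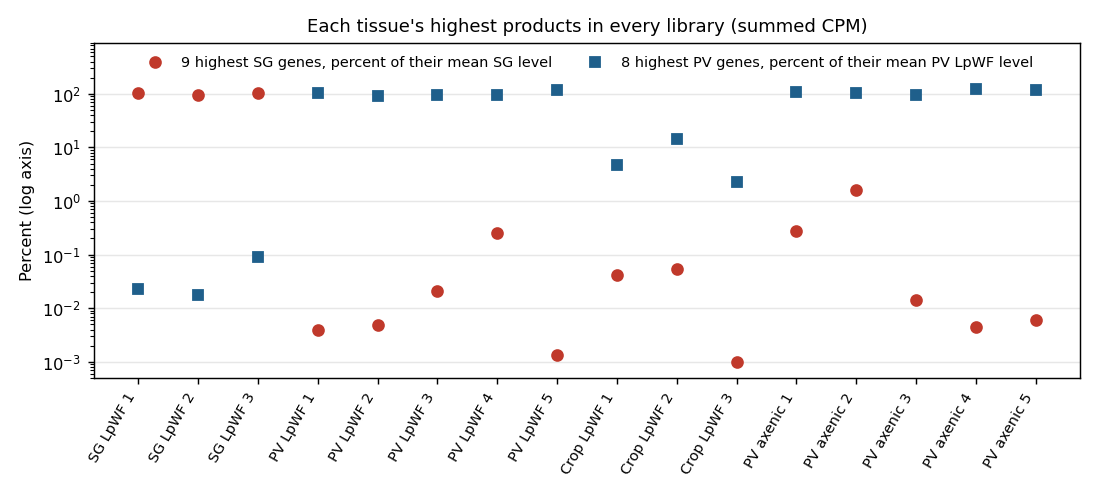
Summed CPM of the 9 highest SG genes (red) and the 8 highest PV genes (blue) in every library of the series, as percent of their mean level in their own tissue, on a log axis. SG genes in PV LpWF replicate 4 sit at 0.254%, above the other PV LpWF libraries at 0.00136 to 0.0214%.

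The highest SG genes encoded small, little-studied products, most of which were near absent from the PV. By mean coding TPM the order in the SG was CG45080, whe, CG34212, CG16826, lcs, Ag5r, CG43680, LysP, CG33109 and CG43679. CG16826 held the most reads, a mean of 27.04% of the gene set in the SG and 0.0196% in the PV. It stood at 536126, 495847 and 538430 normalized CPM in the SG, against 3.89, 1.01, 34.4, 656 and 0.342 in the PV. The groups were far apart. PV replicate 4 was the highest of a wide PV spread, and the other PV libraries still ranged from 0.342 to 34.4. The log2 difference was 11.88 (SE 3.05, adjusted p = 0.0111), and 15.67 (SE 2.36, adjusted p = 0.00153) without PV replicate 4.

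CG45080 ranked 1 in the SG, against 5628, 6676, 798, 97 and 10121 in the 5 PV libraries. whe ranked 2 in the SG, against 3583, 4713, 672, 125 and 7658 in the PV. Both stood highest in PV replicate 4. CG45080 reached 340808, 306235 and 303519 coding TPM in the SG, against 6.64, 4.08, 100, 1598 and 0 in the PV. Its longest model is short, 280 bases with a deposited effective length of 35.3 bases, which raises its TPM in every library alike. By reads, whe stood far above it, at 16.5% of the gene set against 4.26% for CG45080 in the SG. whe had 318090, 282229 and 363394 normalized CPM in the SG and 1.84, 1.12, 12.8, 142 and 0.147 in the PV, a log2 difference of 13.31 (SE 2.74, adjusted p = 0.00409), and 16.26 (SE 1.97, adjusted p = 0.000572) without PV replicate 4. lcs had 185458, 168071 and 209322 normalized CPM in the SG and 10.2, 17.7, 30.5, 206 and 5.57 in the PV. None of these values overlapped between the tissues.

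LysP, a lysozyme, was the best known gene among the SG products. It had 14151, 17172 and 18085 normalized CPM in the SG, against 0, 0.022, 0.584, 11.3 and 0.0489 in the PV. The log2 difference was 12.77 (SE 2.44, adjusted p = 0.00294), and 16.34 (SE 1.09, adjusted p = 3.15e-05) without PV replicate 4. Ag5r, which encodes a secreted protein of the antigen 5 family, was the exception among the 10. It ranked 6 in the SG and 17 in the PV, with 57650, 55805 and 62114 normalized CPM in the SG and 4425, 4144, 4938, 2694 and 3202 in the PV. Its log2 difference was 3.91 (SE 0.20, adjusted p = 5.92e-08).

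**Figure D2:**
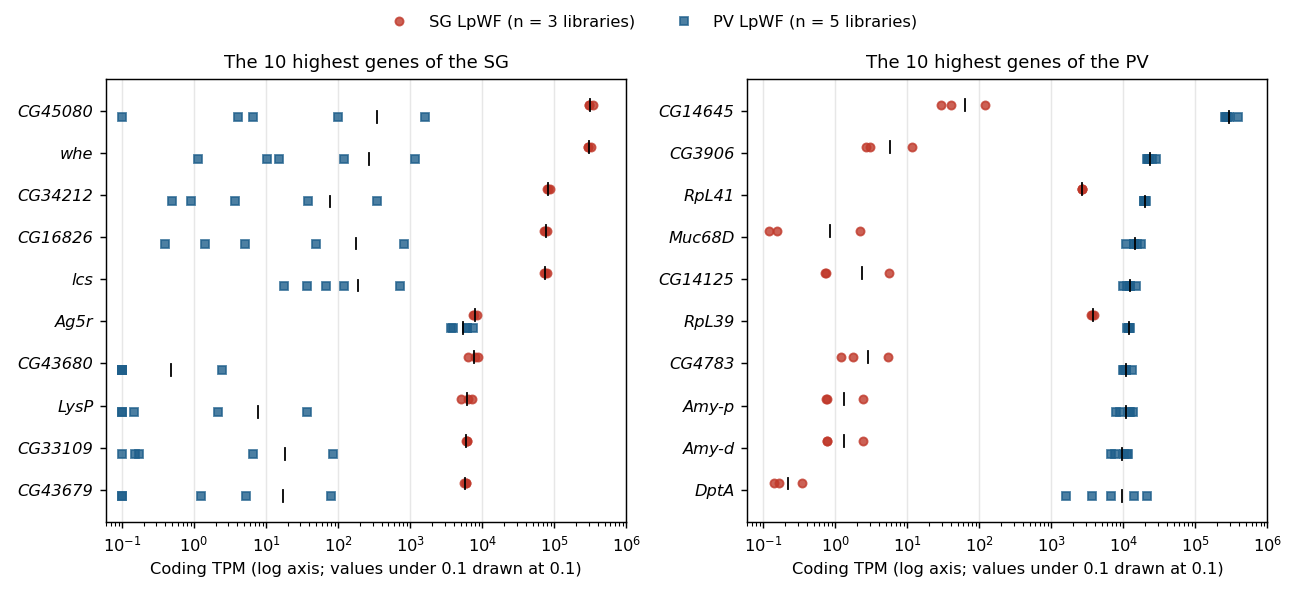
Coding TPM (log axis) of the 10 highest genes of the SG (left) and of the PV (right) in each SG LpWF library (red circles) and PV LpWF library (blue squares), with the group mean as a black bar. Ag5r, RpL41 and RpL39 lie closer between the tissues than the other 17, whose SG and PV libraries do not overlap. For the SG genes other than Ag5r the PV libraries themselves spread widely on this axis. Ag5r differed too, with PV libraries at 12.5 to 25.3% of its mean SG level by plain CPM.

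Several SG products lay side by side in the genome (BDGP6 coordinates of the annotation used here). lcs (chromosome X, 21396727 to 21397316) and whe (21402339 to 21402772) were 5023 bases apart with no other gene of the set between them. CG34211 and CG34212, 2482 bases apart on 2R, ranked 12 and 3 in the SG. On 3L, a stretch of 5303 bases from 15050263 to 15055565 held 6 genes of the set, CG12310, CG43679, CG13461, CG43680, CG18649 and EAChm, and all 6 were called higher in the SG. This stretch was chosen after its values were seen. Its levels were uneven, since CG43679 averaged 11364 normalized CPM and CG43680 averaged 5899 in the SG, against 182 for CG12310, 27.8 for CG13461, 17.6 for EAChm and 4.01 for CG18649. In all PV libraries together CG43679 had 569 reads, CG12310 14, CG43680 6, CG13461 1, and CG18649 and EAChm 0. The next gene on one side, CG18581, was also called higher in the SG at 5.53 normalized CPM, against 0.0169 in the PV. CG13460, the next on the other side, had no read in any SG library.

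In the PV the highest genes were CG14645, CG3906, RpL41, Muc68D, CG14125, RpL39, CG4783, Amy-p, Amy-d and DptA. CG14645 stood alone at the top, with 40.5, 29.8 and 119 coding TPM in the SG, against 295987, 253097, 269722, 275099 and 384726 in the PV. Its log2 difference was -8.99 (SE 0.74, adjusted p = 8.25e-06). By reads the first gene was the mucin Muc68D, a component of the peritrophic matrix, at 0.00147% of the gene set in the SG and 7.997% in the PV. Muc68D had 5.44, 3.61 and 80.0 normalized CPM in the SG and 52734, 37509, 48356, 60058 and 72809 in the PV. The SG value of replicate 3 was the highest of the 3, as it was for CG14645, CG3906 and CG14125. Its log2 difference was -10.84 (SE 1.63, adjusted p = 0.000735).

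The amylase pair ranked 8 and 9 in the PV and 4037 and 4027 in the SG. Amy-p had 7.73, 6.72 and 25.6 normalized CPM in the SG and 13790, 13895, 12126, 10230 and 9827 in the PV, and Amy-d followed it closely. These starch-digesting enzymes come from near-identical genes 4461 bases apart on 2R, between which reads can be split. DptA, an antimicrobial peptide of the IMD pathway, varied most between PV libraries among these 10 genes, with 0.262, 0.560 and 0.323 normalized CPM in the SG and 2853, 3922, 1230, 775 and 366 in the PV. RpL41 and RpL39 were on the PV list for their very short transcripts. RpL41 was not called, at a log2 difference of 0.27 (SE 0.11, adjusted p = 0.0382), and RpL39 was higher in the SG by 1.48 (SE 0.10, adjusted p = 3.07e-07).

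The SG devoted far more of its transcripts to its leading genes. The 10 highest genes held 89.3, 87.9 and 89.1% of coding TPM in the SG, against 42.4, 38.6, 39.5, 38.3 and 50.3% in the PV. The difference of means was 46.95 percentage points, and the exact permutation test over 56 arrangements gave p = 0.0357 (two-sided), the smallest p this design allows. By reads, which give short transcripts no extra weight, the 10 highest genes held 65.5 to 69.0% in the SG and 21.0 to 28.2% in the PV, with the same p = 0.0357 from the exact permutation test. The SG shares of coding TPM rest largely on short genes. The 292 genes with an effective length under 150 bases held 72.0 to 74.4% of coding TPM but 23.2 to 26.1% of reads in the SG, against 5.33 to 6.02% and 0.532 to 0.598% in the PV. The 10 highest genes of the PV held 0.622 to 0.661% of coding TPM in the SG, most of it in RpL41 and RpL39.

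**Figure D3:**
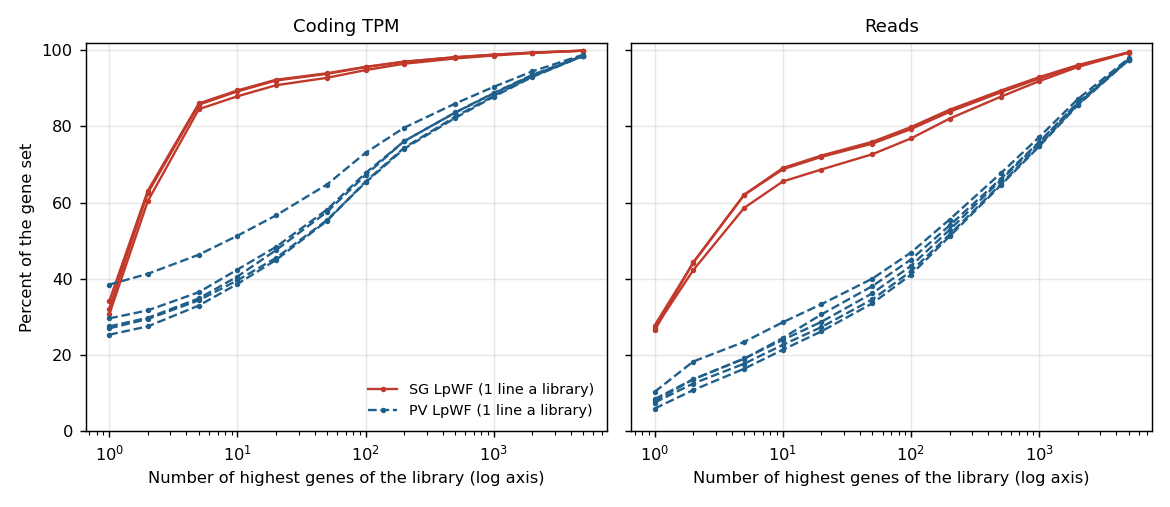
Percent of coding TPM (left) and of reads (right) held by the highest genes of each library, from the first gene upwards on a log axis, with SG LpWF libraries as solid red lines and PV LpWF libraries as dashed blue lines. At 10 genes the SG lines stand at 87.9% or more of coding TPM and the PV lines at 38.6 to 51.3%.

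The order of genes was shared in part. Over all 13575 genes, leading genes and genes without reads included, the rank correlation of mean levels was 0.864 (Spearman). Of these genes 3736 had no read in any SG library and 2211 none in any PV library. The correlation was 0.700 over genes at 1 coding TPM or more in both tissues, and 0.731 at 1 trimmed coding TPM. Over all genes, single libraries correlated at 0.837 to 0.867 between SG and PV, 0.971 to 0.975 within the SG and 0.958 to 0.982 within the PV. These are descriptions across genes, which share library and length, and the PV correlated at 0.923 with the crop, which was prepared with the same kit as the PV. Of the 100 highest genes of each tissue, 63% were shared, and 55 of these 63 encoded ribosomal proteins. Of the 500 highest, 58.2% were shared. Beside the ribosomal proteins, the shared genes included Ag5r, the metallothionein MtnA, the elongation factors eEF1alpha1 and eEF2, and Adh. With the 10 highest genes of each tissue removed and TPM rescaled, 6916 genes reached a mean of 1 TPM in both tissues, 167 in the SG alone and 1493 in the PV alone.

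**Figure D4:**
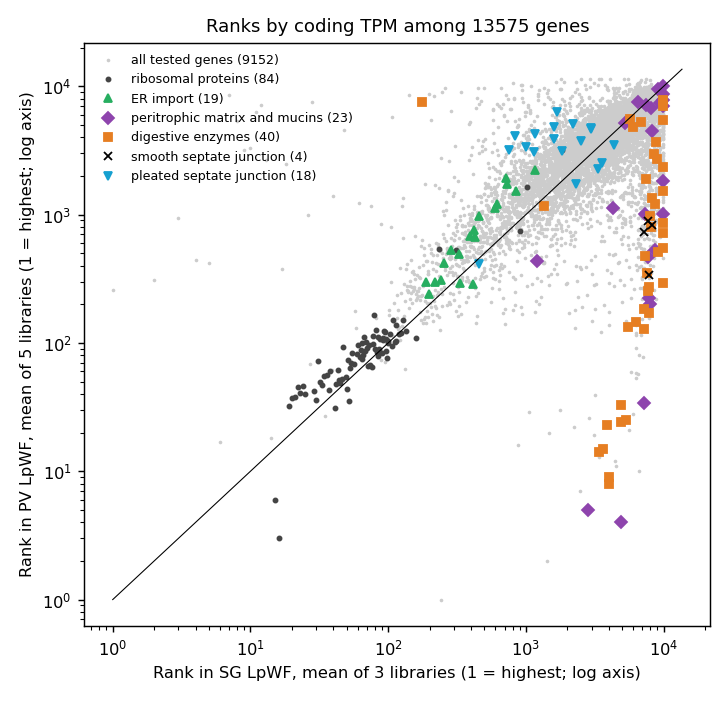
Rank of each tested gene by mean coding TPM in the SG (horizontal) and in the PV (vertical), both on log axes with 1 as the highest, and the line of equal rank. Ribosomal proteins and ER import genes lie near the line, whereas most digestive enzymes and peritrophic matrix genes and the 4 smooth septate junction genes lie to its right, on the side of genes placed higher in the PV than in the SG.

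Across 9152 tested genes, edgeR called 1544 higher in the SG (16.9%) and 2659 lower (29.1%), counting genes with a difference of 2-fold or more and an adjusted p under 0.05. These shares are the background for the counts of the gene lists below. The median log2 difference of all tested genes was -0.12. The balance depends on the scale: limma on log2(trimmed coding TPM + 1) called 581 of 8452 genes higher and 3101 lower, with the median of all genes at -0.61 on that scale. On log2(coding TPM + 1), with the leading genes kept, the median of all genes was -2.11. Without PV replicate 4 the counts were 1555 higher and 2619 lower, with 1499 and 2542 genes called in both fits. Transcript length moved with the difference. From the shortest to the longest of 5 equal groups of genes, the median log2 difference was 0.65, 0.30, -0.05, -0.31 and -0.83. Between crop and PV, which shared a kit, no group departed from the median of all genes by more than 0.07 in either direction. Whether kit, extraction or tissue underlies this gradient was not tested, and neither was its part in the differences of the gene lists.

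Besides the 10 highest products, the genes with the largest fitted excess in the SG were CG34211, CG13947, CG15515, EAChm, D, CG30371, CG8708, CG13461, CG13616 and CG12310. Among them D, or Dichaete, a SoxB transcription factor, had 317, 304 and 304 normalized CPM in the SG, against 0, 0, 0, 0.568 and 0 in the PV. CG13947 had 11431, 4913 and 12608 normalized CPM in the SG, where replicate 2 was lowest, against 0.0548, 0, 0.705, 4.26 and 0 in the PV. EAChm and CG13616 had no read in the PV and were at least 191-fold and 110-fold higher in the SG, against a floor of 3 counts per library. CG34211 had 3 reads in the PV, all in replicate 4, and its ratio was 18729-fold with an exact 95% interval of 6408 to 90829 that covers counting error only. In 8 of these 10 genes the highest PV value was that of replicate 4, the exceptions being EAChm and CG13616 with no reads.

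The 10 genes with the largest fitted deficit had no read in any SG library, where the fitted value depends on the prior count, so their order is not given. They were the mucin Muc68E, the trypsins deltaTry and CG30031, CG18480, the calcium-binding protein Cbp53E, the attacins AttD and AttA, CG7298, the receptor-like gene otk and CG18635. Muc68E had 406, 301, 297, 455 and 149 normalized CPM in the PV, which made it at least 1777-fold lower in the SG. Cbp53E, at 64.9, 51.2, 50.6, 51.3 and 46.1 normalized CPM in the PV, was at least 292-fold lower in the SG, and otk at least 166-fold. These bounds do not place them below genes with a few SG reads, such as Chs2, whose ratio is given with the chitin genes. With PV axenic libraries in place of PV LpWF, AttA, AttD and CG7298 were not called (adjusted p = 0.0509, 0.0708 and 0.138, edgeR). AttA and AttD ranged more than 10-fold among PV libraries, from 3.76 to 64.5 and from 4.64 to 65.9 normalized CPM. deltaTry and CG30031 belong to a family of nearly identical trypsins among which reads may be divided.

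Most genes of the machinery that brings proteins into the ER were called higher in the SG on the TMM scale. Of 19 tested genes for the signal recognition particle, translocon and signal peptidase, 17 were called higher and 0 lower, beside 16.9% and 29.1% of all genes, and the median log2 difference was 1.301. By plain CPM, without TMM, the listed genes summed to 2266 to 2523 in the SG and to more in the PV, 2790 to 3775. Srp19, a subunit of the signal recognition particle, had 45.5, 36.8 and 46.1 normalized CPM in the SG and 10.6, 12.0, 11.8, 10.6 and 10.4 in the PV, a log2 difference of 1.95 (SE 0.10, adjusted p = 6.14e-08). The 2 genes not called were SsRbeta and Sec61alpha, the channel subunit, the second at 407 normalized CPM in the SG and 450 in the PV. Spase25, called at 1.04, stood at the 2-fold limit and lost its call under 6 alternatives, among them leaving out SG replicate 1 (0.99) or PV replicate 4 (0.97).

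Of 20 tested genes for folding in the ER, 3 were called higher (15%, near the 16.9% of all genes) and 0 lower, with a median of 0.28. This median lay below that of all genes on the log2(coding TPM + 1) scale. By plain CPM these genes summed to 2829 to 3561 in the SG and to more in the PV, 5724 to 9980. ERp60, not called by edgeR, was called lower by limma on log2(trimmed coding TPM + 1), at -1.46. Ero1L, which supplies oxidizing power for disulphide bonds, had 266, 300 and 285 normalized CPM in the SG and 59.9, 67.6, 59.1, 60.3 and 59.7 in the PV, a log2 difference of 2.21 (SE 0.08, adjusted p = 6.94e-09). Dad1 and Stt3A, both of the complex that adds N-glycans, were the other 2 genes called. The chaperone Hsc70-3, also called BiP, averaged 967 normalized CPM in the SG and 945 in the PV, at a log2 difference of 0.03 (SE 0.17, adjusted p = 0.868).

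Of 31 vesicle transport genes, 13 were called higher and 1 lower, with a median of 0.92 that changed side of the all-gene median on the log2(coding TPM + 1) scale. By plain CPM they summed to 3654 to 4164 in the SG and 6158 to 8423 in the PV. The p24 cargo receptors parted within this list. p24-1 had 292, 240 and 277 normalized CPM in the SG and 57.7, 72.5, 73.1, 48.6 and 59.1 in the PV, a log2 difference of 2.11 (SE 0.14, adjusted p = 3.05e-07). opm, another p24 gene, had 9.82, 8.40 and 9.37 normalized CPM in the SG and 329, 303, 303, 285 and 402 in the PV, at -5.14 (SE 0.16, adjusted p = 2.36e-09). The family member bai, called at 1.02, lost its call under 10 alternatives, including DESeq2 (0.95), and at 0.94 without SG replicate 1 and without PV replicate 4. The SNAREs and regulators of regulated exocytosis gave 1 gene higher and 8 lower of 24 (33.3%, near the 29.1% of all genes), with a median of -0.43. The one higher was the synaptotagmin-like gene btsz, at 391.9, 395 and 364 normalized CPM in the SG and 106, 109, 103, 107 and 103 in the PV (log2 difference 1.86, SE 0.07, adjusted p = 9.26e-09), while several of the 8 lower were neuronal genes such as Snap25, Syt1 and nSyb.

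Regulators of the secretory pathway were mixed, with 2 genes higher (25%) and 3 lower (37.5%) of 8, beside 16.9% and 29.1% of all genes. Their median of 0.38 was below that of all genes on the log2(coding TPM + 1) scale. sage, a bHLH factor known from embryonic salivary glands, had 216, 198 and 235 normalized CPM in the SG and 1.32, 1.47, 1.37, 1.78 and 1.37 in the PV. Its log2 difference was 7.21 (SE 0.12, adjusted p = 4.04e-10), with almost no spread in either tissue. Its partner fkh, a forkhead factor of both gland and gut, was higher by 1.73 (SE 0.11, adjusted p = 2.99e-07). CrebA and Xbp1, broad activators of secretory genes, lay at 0.49 and 0.62 and did not reach the 2-fold limit. The stress sensors Ire1, PEK and Atf6 were lower in the SG, at -1.35 to -1.52.

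Cytosolic ribosomal proteins stood near the top of both tissues, at a median rank of 73.5 in the SG and 88.5 in the PV. Of 84 tested, 45 were called higher in the SG and 0 lower, with a median of 1.02 that was -0.02 relative to all genes on the log2(coding TPM + 1) scale. By plain CPM the listed genes summed to 57646 to 61839 in the SG and 82553 to 90203 in the PV. RpL23A led with 1829, 1992 and 1923 normalized CPM in the SG and 312, 343, 327, 432 and 406 in the PV (log2 difference 2.40, SE 0.12, adjusted p = 5.15e-08). At the other end RpL22 lay at -0.39, not called. RpLP2, sta, RpL3, RpL18, RpS4, RpL38 and the elongation factors eEF1alpha1 and eEF5 were among the 10 most abundant genes with a log2 difference under 0.5 in size, together with Adh and CG30197. Of 18 aminoacyl-tRNA synthetases, which charge tRNAs, 0 were called higher and 4 lower (22.2%, below the 29.1% of all genes), with a median of -0.28. ThrRS had the lowest value of the list, at 49.8, 43.2 and 53.2 normalized CPM in the SG and 429, 560, 545, 357 and 440 in the PV, a log2 difference of -3.26 (SE 0.18, adjusted p = 7.59e-08).

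Most mitochondrial energy genes were higher in the SG. Of 73 tested nuclear genes of the respiratory chain and ATP synthase, 67 were called higher in the SG and 3 lower, with a median of 1.75. The summed trimmed coding TPM of this list was 51933 to 56808 in the SG and 24416 to 26800 in the PV. By plain CPM it summed to 9874 to 11550 in the SG and 8590 to 9841 in the PV. ATPsynC, the rotor subunit of ATP synthase, had 1510, 1678 and 1527 normalized CPM in the SG and 554, 489, 506, 592 and 527 in the PV, a log2 difference of 1.56 (SE 0.09, adjusted p = 1.74e-07). The largest excess was that of COX5BL, a rare relative of a cytochrome oxidase subunit, at 28.2 normalized CPM in the SG and 0.291 in the PV. The 3 lower genes were COX6AL, ND-51L1 and UQCR-11L, all duplicate forms of subunit genes. Mitochondrially encoded genes, counted apart, gave 0.561 to 0.742 reads per 100 of the gene set in the SG and 0.690 to 1.36 in the PV.

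The vacuolar proton pump followed. Of 21 tested subunit genes, 15 were called higher in the SG and 3 lower, with a median of 1.83. The summed trimmed coding TPM of the list was 19104 to 23289 in the SG and 7239 to 10111 in the PV. By plain CPM the sums overlapped, at 11007 to 14029 in the SG and 7846 to 11952 in the PV. Vha13 had 1340, 1613 and 1604 normalized CPM in the SG and 225, 208, 182, 216 and 169 in the PV, a log2 difference of 2.92 (SE 0.12, adjusted p = 1.19e-08). The a subunits, which carry protons through the membrane, split by paralogue. Vha100-2 had 2582, 3739 and 3532 normalized CPM in the SG and 597, 571, 463, 394 and 377 in the PV. Vha100-5 had 2 reads in the SG, and 36.8, 42.3, 33.7, 181 and 5.18 normalized CPM in the PV, a ratio of 1418-fold lower in the SG with an exact 95% interval of 393 to 11713 for counting error. Vha100-1 lay at -0.19, not called.

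Genes of the peritrophic matrix ran the other way. Of 23 tested mucins and chitin-binding proteins, 0 were called higher and 21 lower in the SG, with a median of -7.74, or -5.99 with the 6 genes that had no SG read held at their bound. The 2 not called were Gasp and Mur2B, a mucin-related gene at 8.70 normalized CPM in the SG and 8.56 in the PV. CG31077 had 0.327, 0.458 and 4.97 normalized CPM in the SG and 7894, 6026, 8583, 7791 and 9480 in the PV, a log2 difference of -12.03 (SE 1.24, adjusted p = 7.88e-05). CG3348, called lower at -1.45, lost its call without SG replicate 2 or 3 or PV replicate 2, 3 or 5, at -1.15 to -1.48.

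Most chitin genes were called lower in the SG. Of 26 tested, 3 were called higher and 17 lower in the SG, with a median of -1.61. Chs2, the gut chitin synthase, had 2 reads in the SG and 157, 136, 144, 181 and 133 normalized CPM in the PV, a ratio of 3764-fold lower with an exact 95% interval of 1042 to 31079. Cht8, a chitinase, had 81.7, 73.4 and 69.4 normalized CPM in the SG and 3719, 3354, 4504, 3383 and 4229 in the PV, at -5.68 (SE 0.18, adjusted p = 2.45e-09). Idgf3, a chitinase-like growth factor without known chitin-cleaving activity, was the main exception, with 3478, 4215 and 3804 normalized CPM in the SG and 73.0, 105, 98.2, 40.9 and 33.4 in the PV (log2 difference 5.77, SE 0.42, adjusted p = 4.40e-06). Its relatives Idgf4, Idgf5 and Idgf6 were called lower in the SG, and Idgf1 higher.

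Of 26 O-glycosylation and sugar nucleotide genes, 8 were called higher (30.8%) and 9 lower (34.6%) in the SG, beside 16.9% and 29.1% of all genes, and the median of 0.05 covers members of both directions. It passed below that of all genes on both log2(TPM + 1) scales. Pgant4, a transferase that starts mucin-type sugar chains, had 0.589, 0.916 and 4.78 normalized CPM in the SG and 1691, 1913, 1955, 1505 and 2016 in the PV, at -9.78 (SE 0.81, adjusted p = 1.89e-05). Pgant7, of the same family, had 558, 556 and 619 normalized CPM in the SG and 40.4, 40.8, 43.4, 38.4 and 41.1 in the PV, at 3.82 (SE 0.08, adjusted p = 4.04e-10). Pgant1, Pgant6 and Pgant9 were also called higher in the SG, and Pgant2, Pgant5 and Pgant8 lower. The core galactosyltransferase C1GalTA and its relative tgy stood at log2 differences of -5.89 and -9.04.

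Most digestive enzymes with a call were lower in the SG. Of 40 tested, 1 was called higher and 25 lower in the SG, with a median of -8.83 or -8.42 with 9 genes at their bound, and 1 higher and 30 lower of 35 without PV replicate 4. The spread among PV libraries was wide, since the summed trimmed coding TPM of the list was 850 to 1265 in the SG and 14947 to 126980 in the PV. The protease alphaTry had 7.53, 4.73 and 11.7 normalized CPM in the SG and 2762, 2937, 1747, 6678 and 362 in the PV (log2 difference -8.51, SE 1.25, adjusted p = 0.000691), with betaTry close by as a near-identical copy. The exception was the maltase Mal-B1, which had 1366, 1286 and 818 normalized CPM in the SG and 2.93, 1.39, 1.57, 2.98 and 2.40 in the PV (log2 difference 9.02, SE 0.34, adjusted p = 4.77e-08). Jon99Ci, a Jonah protease, averaged 29.4 normalized CPM in the SG and 33.7 in the PV and was not called.

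Lysozymes split between the organs. Besides LysP, LysD was called higher in the SG, with 123, 131 and 164 normalized CPM there and 0.987, 2.02, 1.65, 2.02 and 0.147 in the PV (log2 difference 6.62, SE 0.53, adjusted p = 1.65e-05), though it shares near-identical sequence with LysB and LysE. LysX and LysB were called lower among the 5 tested, LysX with 1 read in the SG. Antimicrobial peptides and peptidoglycan recognition proteins gave 4 genes higher and 16 lower in the SG of 24, with a median of -6.65, or -5.65 with 4 genes at their bound. Def had 0.393, 0.0509 and 1.03 normalized CPM in the SG and 571, 769, 561, 225 and 228 in the PV, at -9.97 (SE 0.96, adjusted p = 5.75e-05). Drs, an antifungal peptide, was the one peptide gene called higher in the SG, with 260, 244 and 247 normalized CPM there and 0.932, 0.857, 1.67, 0.0710 and 0 in the PV (log2 difference 8.28, SE 0.74, adjusted p = 4.53e-05). The recognition genes PGRP-LA, PGRP-LB and PGRP-SA were also called higher, by 1.01 to 1.52.

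Small carriers of lipids and odours were listed together with vir-1 and Nplp2, which the paper names among immunity genes. Of 19 tested genes of this list, 2 were called higher (10.5%) and 11 lower (57.9%), with a median of -2.18. The shares of all genes were 16.9% and 29.1%. to, or takeout, had 0.589, 0.458 and 3.42 normalized CPM in the SG and 1701, 1256, 1493, 1397 and 1831 in the PV, at -10.04 (SE 0.78, adjusted p = 1.16e-05). EbpIII had 33.2, 36.2 and 35.5 in the SG and 1956, 1625, 1956, 1906 and 2494 in the PV, at -5.83 (SE 0.18, adjusted p = 2.36e-09). The highest gene of this list in the SG was vir-1, at 1111 normalized CPM in the SG and 461 in the PV. Fatty acid genes were also lower, 14 of 18 with 0 higher and a median of -2.52. CG5065 led this list, with 11.7, 12.8 and 10.8 normalized CPM in the SG and 1040, 797, 1023, 1004 and 1430 in the PV (log2 difference -6.49, SE 0.23, adjusted p = 5.09e-09). FASN1 and ACC, the synthase and carboxylase at the start of fat synthesis, differed by -4.39 and -3.74.

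Of 70 cuticle protein genes only 9 passed the filter on low counts. Of these 3 were called higher (33.3%) and 6 lower (66.7%), beside 16.9% and 29.1% of all genes. Cpr67B averaged 17.8 normalized CPM in the SG and 319 in the PV, while Cpr73D averaged 24.5 in the SG and 0.168 in the PV. 42 of the 70 had no read in any SG library.

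**Figure D5:**
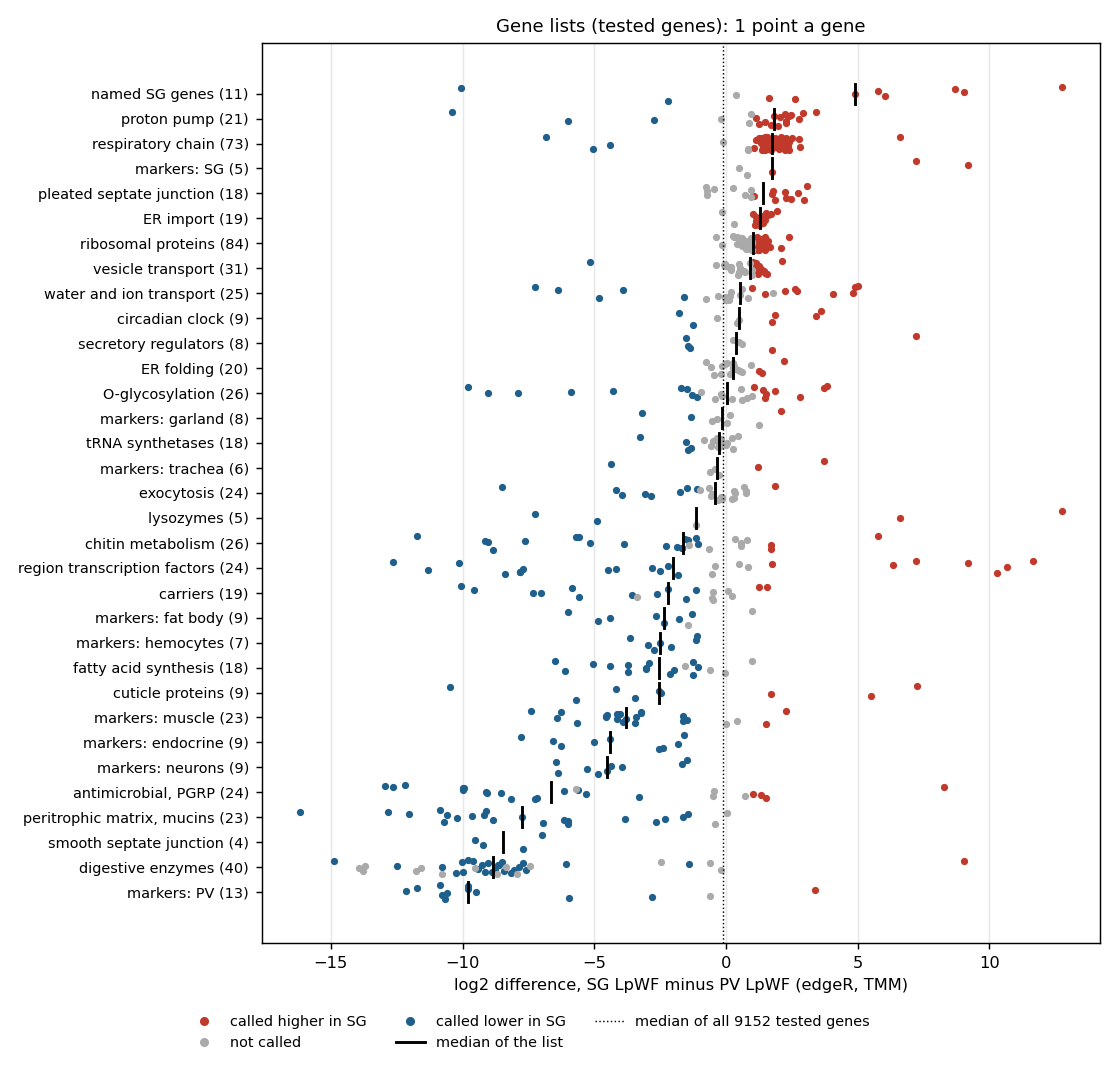
Log2 difference (SG minus PV, edgeR) of every tested gene of 33 lists, 1 point a gene, coloured by its call, with the list median as a black bar and the number of genes tested in brackets; fitted values of genes with no reads in 1 tissue depend on the prior count. Proton pump and respiratory genes lie right of the dotted median of all genes at -0.12, while digestive enzymes and the 4 smooth septate junction genes reach far to its left.

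Smooth septate junctions are the form found in the endoderm of flies, and pleated ones are the form of ectoderm. The 4 smooth junction genes, Ssk, mesh, Tsp2A and hoka, were all called lower in the SG, with a median of -8.48. Ssk had 0.0655, 0.153 and 0.258 normalized CPM in the SG and 123, 154, 131, 120 and 79.0 in the PV, at -9.54 (SE 0.38, adjusted p = 1.85e-08). Of 18 pleated junction genes, 10 were called higher in the SG and 0 lower, with a median of 1.39. Their sums depended on the scale. By plain CPM, without TMM, they summed to 892 to 1141 in the SG and to more in the PV, 1652 to 1958. By trimmed coding TPM they summed to 983 to 1163 in the SG and 706 to 884 in the PV. crok, needed for pleated junction assembly, had 27.5, 26.1 and 29.7 normalized CPM in the SG and 3.48, 3.56, 2.72, 3.02 and 3.47 in the PV, at 3.09 (SE 0.11, adjusted p = 6.60e-09).

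Transcription factors of foregut, endoderm and gland gave 7 called higher (29.2%) and 13 lower (54.2%) of 24, with a median of -2.01. The shares of all genes were 16.9% and 29.1%. The Pax factors eyg, which acts in salivary duct formation in the embryo, and its relative toe were both called higher in the SG. eyg had 173, 213 and 163 normalized CPM in the SG and 0.0822, 0.022, 0.0403, 1.63 and 0 in the PV, at 9.18 (SE 1.09, adjusted p = 0.000244), and at 12.03 (SE 0.26, adjusted p = 2.10e-10) without PV replicate 4. toe averaged 248 in the SG and 0.175 in the PV, and Sox21b, a relative of D, 156 in the SG and 0.141 in the PV. Scr, the Hox gene that specifies the embryonic gland, was low in both, with 5.11, 6.31 and 4.65 normalized CPM in the SG and 0.0548, 0.022, 0.0805, 0.142 and 0 in the PV (log2 difference 6.36, SE 0.49, adjusted p = 9.97e-07). The endodermal factor GATAe had 0, 0 and 0.0646 normalized CPM in the SG and 48.9, 55.5, 50.9, 86.4 and 63.3 in the PV. dve, a homeobox factor of the PV and midgut, had 0.196, 0.305 and 0.388 in the SG and 315, 303, 309, 371 and 390 in the PV, at -10.13 (SE 0.22, adjusted p = 4.04e-10). vnd had no read in the SG and was at least 152-fold lower there.

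Water and ion transport genes gave 9 higher (36%) and 5 lower (20%) of 25, beside 16.9% and 29.1% of all genes. Their median of 0.51 was below that of all genes on the log2(coding TPM + 1) scale. The cotransporters of the NKCC family were exchanged between the organs. NKCC had 780, 985 and 767 normalized CPM in the SG and 24.8, 22.2, 22.9, 35.5 and 24.8 in the PV, at 5.02 (SE 0.17, adjusted p = 3.99e-09). Ncc69 had 1.77, 5.65 and 2.13 in the SG and 614, 519, 492, 402 and 468 in the PV, at -7.26 (SE 0.45, adjusted p = 1.44e-06). The carbonic anhydrases CAH1, CAH2 and CAH9, the chloride channel ClC-a and the aquaporin gene Drip were also called higher in the SG. CAH1 had 2246, 2805 and 2791 normalized CPM in the SG and 93.7, 96.0, 76.7, 109 and 61.0 in the PV, at 4.91 (SE 0.19, adjusted p = 7.92e-09).

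Clock genes gave 4 higher (44.4%) and 2 lower (22.2%) of 9, beside 16.9% and 29.1% of all genes. Their median of 0.50 was below that of all genes on the log2(coding TPM + 1) scale. vri had 552, 582 and 577 normalized CPM in the SG and 49.6, 40.0, 40.0, 63.9 and 38.7 in the PV, at 3.62 (SE 0.16, adjusted p = 2.34e-08). tim was higher by 3.44, per by 1.87 and Pdp1 by 1.73. cry, the light sensor, had 40.0, 71.1 and 58.8 in the SG and 215, 178, 164, 189 and 231 in the PV, at -1.79 (SE 0.19, adjusted p = 1.63e-05). The hour of dissection is not given for either tissue, so tissue and time of day cannot be told apart here.

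The study names 11 genes for the SG, 9 as products of the gland and to and Jhbp14 from reporter lines that labelled its cells. The direction of the 9 is not independent evidence, since they were named in a study of these same libraries. Here 8 were called higher in the SG, 2 lower and 1 was not called. Est-6, a secreted esterase, had 5086, 5330 and 5497 normalized CPM in the SG and 8.28, 8.16, 13.7, 26.4 and 7.67 in the PV, at 8.69 (SE 0.52, adjusted p = 1.46e-06). DNaseII had 2705, 3204 and 3230 in the SG and 63.1, 45.97, 37.1, 47.4 and 38.1 in the PV, at 6.04 (SE 0.19, adjusted p = 2.73e-09). Idgf3, Mal-B1, LysP, CAH1, Drip and mtd were the others called higher, with mtd at 1.62. The carriers to and Jhbp14 were called lower, and Adh lay at 0.38 (SE 0.15, adjusted p = 0.0449), below the 2-fold limit, with 1688, 2093 and 1893 normalized CPM in the SG and 1449, 1183, 1245, 1534 and 1858 in the PV.

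Markers of other cell types bear on these contrasts, because in bulk tissue fewer cells of a type and less RNA per cell cannot be told apart. Of 23 muscle genes, 2 were called higher and 19 lower in the SG, and their summed trimmed coding TPM was 256 to 280 in the SG and 4102 to 5825 in the PV. Mhc, the muscle myosin, had 11.6, 15.5 and 14.7 normalized CPM in the SG and 1128, 1060, 1022, 930 and 1216 in the PV. The PV is wrapped in visceral muscle. All 9 neuronal, all 9 endocrine and all 7 hemocyte markers tested were called lower in the SG, with medians of -4.51, -4.42 and -2.49, though the neuronal list changed side on the log2(coding TPM + 1) scale. The hemocyte gene eater lost its call without SG replicate 2 or 3 or PV replicate 1, 2 or 3 (-0.92 to -1.05, adjusted p = 0.0561 to 0.104, edgeR), and the neuronal gene nSyb lost its call with gene-length offsets (-0.73, adjusted p = 0.125, edgeR). Summed trimmed coding TPM in the SG and PV was 2.04 to 3.32 and 19.6 to 31.3 for neuronal, 5.25 to 9.29 and 258 to 309 for endocrine, and 34.6 to 38.6 and 125 to 170 for hemocyte markers. Endocrine genes of the corpora allata included Cyp6g2, at 0.791 normalized CPM in the SG and 73.4 in the PV. CCHa1 and AstC, He and Fbp1 had no SG read.

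Fat body markers were lower in 7 of 9 with 0 higher, and summed to 593 to 681 trimmed coding TPM in the SG and 2229 to 5138 in the PV. Garland cell markers gave 1 higher (12.5%) and 2 lower (25%) of 8, near the 16.9% and 29.1% of all genes. They summed to 33.8 to 86.9 in the SG and 94.4 to 166 in the PV. Tracheal markers gave 2 higher (33.3%) and 1 lower (16.7%) of 6, summing to 179 to 291 in the SG and 161 to 253 in the PV. Of 13 listed markers of the gland, from this or other stages, 5 passed the filter, with sage, eyg and fkh called higher and CrebA and Papss not called. The larval glue genes Sgs1, Sgs3 and Sgs8 together with pip were at 0 in the SG. Sgs5, Sgs7, PH4alphaSG1 and PH4alphaSG2 did not pass the filter either. Of these markers, sage and eyg were thus present in the SG libraries and low in the PV libraries. Of 13 PV markers 11 were called lower in the SG. Trimming leaves out Muc68D and Amy-p, and the rest of the list summed to 535 to 572 trimmed coding TPM in the SG. In the PV it summed to 11447 to 25809. These sums include CG4267. CG4267, which the study uses as a marker within the PV, was the one called higher, with 309, 347 and 352 normalized CPM in the SG and 28.6, 27.3, 31.6, 34.3 and 38.9 in the PV (log2 difference 3.39, SE 0.12, adjusted p = 6.04e-09). The part of these cell types in the list differences above was not tested.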

How the data were processed

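Bulk RNA of SG LpWF (3 libraries) and PV LpWF (5 libraries) was compared. The names of the deposited SG tables carry a code other than LpWF. The group was taken as LpWF, since the study states that all flies but the axenic PV controls were given it. PV axenic and crop libraries served as alternatives or descriptions. The authors assigned reads with Salmon to BDGP6 transcripts of Ensembl release 98 and deposited, per transcript, estimated counts that are not normalized, TPM scaled over all transcripts, and an effective length in bases, a deposited value (other) that is the same in every library and becomes very small for short transcripts. No columns of unlisted samples were found.

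Counts and TPM were summed per gene with Ensembl release 115, and counts were rounded for testing. Transcripts that this release no longer lists were left out (0.140 to 0.257% of reads). The main test was edgeR 4.0.16 on R 4.3.3, with TMM factors (0.491 to 0.543 in the SG, 1.40 to 1.58 in the PV), the filterByExpr filter, robust quasi-likelihood F tests and Benjamini-Hochberg adjustment over 9152 genes, with calls at an adjusted p under 0.05 and a log2 difference of 1 or more in size. Trimmed coding TPM omits the 10 highest genes of each tissue. Folds for genes without reads are bounds against 3 counts per library (means of 0.181 normalized CPM in the SG and 0.0923 in the PV). Intervals cover counting error only. The members, gene lists and tests were chosen with earlier results of these data known. Of the listed symbols, 26 matched no gene. Genes were named by rule: the 10 highest of each tissue, the 10 largest differences each way with at least 10 trimmed coding TPM and no overlap, the extremes and highest genes of each list, the 10 most abundant genes with a log2 difference under 0.5, and the genes the study names for the SG. Further members of lists were named after their values were seen. Lists were described by counts and medians, without a set test.

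Counts differed between each pair of libraries of a group by at least 20.4 times counting variance per gene, so no library was a copy. Same-numbered SG and PV libraries deviated from their group means with correlations of 0.030, -0.055 and 0.032, so numbers were not used as pairs. Each test was tested on simulated data. Alternatives were other size factors, filters, DESeq2 1.42.0, limma 3.58.1, gene-length offsets, removal of the highest genes, a replicate block, PV libraries with up to 25% ribosomal RNA, PV axenic libraries, other scales and leaving out each library. Reads per annotated kb and a trimmed-TPM filter for ranks were added after seeing the data. Levels, ranks and exact tests came from Python 3.11.15 (scipy 1.17.1, numpy 2.4.6, pandas 2.3.3), and plots from matplotlib 3.10.9.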

Additional observations from a re-analysis of the deposited data

Results flagged for a closer look

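Values of PV LpWF, a group of 5 libraries, were examined for a single library far from the other 4, over 74 values. Chance marks about 1 in 20 of independent, normally distributed values, and 22 were marked. The values share the same 5 libraries, so this number cannot be set against that rate. In 17 of them the library was replicate 4 and the gene was one of the SG products, at a normalized CPM of 48.1 for CG45080, 142 for whe, 31.8 for CG34212, 656 for CG16826, 206 for lcs, 0.213 for CG43680, 11.3 for LysP, 55.6 for CG33109, 18.001 for CG43679, 0.107 for CG34211, 4.26 for CG13947, 0.107 for CG15515, 0.568 for D, 7.56 for CG30371, 2.70 for CG8708, 0.0355 for CG13461 and 0.391 for CG12310. CG43680, CG34211, CG15515, D and CG13461 had PV reads in replicate 4 alone, so that library stands apart from zeros by construction, and these 5 say no more than that, CG13461 on 1 read. Replicate 5 was highest for CG3906 at 15625, for CG4783 at 1904 and for the PV marker list at 25809 summed trimmed coding TPM. Replicate 1 was highest for Cbp53E at 64.9 and for CG7298 at 69.5.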

How the results depend on the processing

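Counts of calls stayed within 1.5 times of 1544 higher and 2659 lower under the other settings except limma on log2(trimmed coding TPM + 1), with 581 higher, and the filter of 10 counts in every library, with 1332 lower of 6973 tested. Fewer genes enter under that filter. With the replicate block there were 1550 and 2658 calls; the numbers were not taken as pairs. The difference in the share of the 10 highest genes was 46.1 to 49.1 percentage points when each library was left out, with exact permutation p = 0.0952 without an SG library and 0.0571 without a PV library, each the smallest the smaller design allows. The rank correlation was 0.874 by CPM, 0.700 over genes at 1 coding TPM in both tissues and 0.731 over genes at 1 trimmed coding TPM in both. Of 24 lists of functions, 12 had a median above that of all genes, and 5 on the log2(coding TPM + 1) scale. Relative to all genes, medians changed sign on that scale for ER folding (-0.68), vesicle transport (-0.12), secretory regulators (-0.60), ribosomal proteins (-0.025), O-glycosylation (-0.38), water and ion transport (-0.050), clock (-0.25), neurons (1.27) and trachea (0.061), and on the log2(trimmed coding TPM + 1) scale for O-glycosylation (-0.059). The cause was not tested. Of 153 named genes tested, 126 kept their call under every alternative that could be fitted, 27 gained or lost one and 0 reversed. With PV axenic libraries in place of PV LpWF, CG13947 was at 6.77 (adjusted p = 0.0866) and lost its call. Depth limits genes with few reads in the other tissue, whose folds are bounds or carry wide intervals.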

Other observations

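SG products were also read in PV axenic libraries, which entered only the alternative that put them in place of PV LpWF. The 9 highest SG genes other than Ag5r together stood at 0.277, 1.59, 0.0142, 0.00442 and 0.00598% of their mean SG level in PV axenic replicates 1 to 5, and at 0.0423, 0.0538 and 0.00101% in the 3 crop libraries. The 8 highest PV products stood at 4.77, 14.5 and 2.30% of their mean PV LpWF level in those crop libraries.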
